A study of Mus musculus with 6 samples.

Results

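The mitochondrial ribosomal protein genes of mouse liver were taken as the rows whose symbol starts with Mrpl or Mrps followed by a digit, which gave 74 of 12792 rows. Of these, 46 are named Mrpl, for the large subunit, and 28 Mrps, for the small subunit. *Mrps6* was listed without a value, which left 73 genes, 46 and 27, with a value above 0 in all 6 libraries. All 73 passed the filter on low values. *Mrpl18*, *Mrpl53*, *Mrpl58* and *Mrps23* are not analysed here. The samples are polyadenylated RNA of liver from wild-type mice (WT, 3 libraries) and *Akr1d1*-knockout mice (KO, 3 libraries), as labelled. Every sample, controls included, comes from the tumour model made with Hepa 1-6, a mouse hepatoma line. The labels do not say whether the sampled pieces held tumour, how or in which cells *Akr1d1* was removed, or the animals' strain, age or sex. They also do not state that the 6 libraries come from separate animals. P-values therefore reflect only the library-to-library spread seen here, which may be technical.

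Mitochondria keep a ribosome of their own, which translates the few proteins still encoded by mitochondrial DNA, all of them parts of the respiratory chain and ATP synthase. Its ribosomal RNA comes from mitochondrial DNA, while all its proteins are encoded in the nucleus, made in the cytosol and imported. Some of these proteins descend from bacterial ribosomal proteins and others were added in mitochondria. Liver is rich in mitochondria, and the subunits of 1 ribosome are needed in equal amounts, which is the question behind setting the large subunit against the small one.

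The deposited values are relative: the expression of a gene in 1 library was divided by that gene's mean. Read from the values, this mean covers 7 libraries, and only the 6 labelled WT and KO were available here. A value of 1 is therefore the gene's own mean, and levels of different genes cannot be compared. Total reads per library are unknown. *Akr1d1*, the steroid 5-beta-reductase that the labels name as removed, stood at 0.826, 0.697 and 0.881 in WT replicates 1 to 3 and at 1.22, 1.21 and 1.35 in KO replicates 1 to 3. It was thus higher, not lower, in every library labelled KO (log2 change 0.60, SE 0.11, limma adjusted p = 0.17; exact permutation p = 0.1, two-sided, the smallest that 3 against 3 allow). All directions in the following are between libraries as labelled. Over all 12578 genes tested, 2 passed the threshold of an adjusted p under 0.05 in limma (0.0159%). Of 8 hepatocyte markers 7 had values, all above 0 in every library, but a ratio cannot show how abundant they were.

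The stretches upstream of the start sites were read for letters known from other genes of mitochondrial proteins. NRF1, ETS-family factors such as GABP, and YY1 are transcription factors known to bind such promoters. RefSeq promoters (GRCm38.p6, 250 bases before to 50 after the start) matched 64 of the 73 genes. The NRF1 letters, GCGCA and GCGC with any 1 base between them, stood on either strand in 13 of the 64 (20.3%), against 11.3% of the 9533 tested genes with such a promoter. The ETS letters CCGGAAG stood in 22 (34.4%, against 19.4%) and the YY1 letters, AAGATG followed directly by GCGGC, in 5 (7.81%, against 1.79%). The end of the ETS letters can overlap the start of the YY1 letters. At least 1 of the motifs was found in 34 of the 64 (53.1%, against 29.3%). A match is a run of letters, not a measured binding site. The 150 bases before the RefSeq start are shown 5′ to 3′ for 5 genes, with matches in capitals. *Mrps18b* and *Mrps21* each also hold an ETS match in the RefSeq promoter, outside the bases shown. *Mrpl1* (chr5:96209965-96210114, plus strand) and *Mrps18b* (chr17:35916441-35916590, minus strand) are shown because they had the highest and the lowest log2 change. *Mrps21* (chr3:95871515-95871664, minus strand), with NRF1 letters, is shown as a gene high in WT replicate 2. *Mrps22* (chr9:98601680-98601829, minus strand), with ETS letters, had the highest change in the small subunit, and *Mrps11* (chr7:78782981-78783130, plus strand) holds YY1 letters.
Mrpl1: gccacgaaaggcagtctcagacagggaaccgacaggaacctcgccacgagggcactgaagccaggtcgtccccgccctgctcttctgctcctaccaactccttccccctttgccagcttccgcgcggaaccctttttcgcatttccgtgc
Mrps18b: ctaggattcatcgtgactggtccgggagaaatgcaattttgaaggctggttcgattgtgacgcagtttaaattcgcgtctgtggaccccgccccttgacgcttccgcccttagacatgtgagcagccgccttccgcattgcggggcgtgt
Mrps21: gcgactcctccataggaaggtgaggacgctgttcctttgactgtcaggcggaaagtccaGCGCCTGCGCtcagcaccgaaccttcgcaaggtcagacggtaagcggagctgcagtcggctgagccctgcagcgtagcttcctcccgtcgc
Mrps22: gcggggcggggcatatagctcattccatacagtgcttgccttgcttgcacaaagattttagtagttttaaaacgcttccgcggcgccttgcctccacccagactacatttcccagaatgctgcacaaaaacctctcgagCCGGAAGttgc
Mrps11: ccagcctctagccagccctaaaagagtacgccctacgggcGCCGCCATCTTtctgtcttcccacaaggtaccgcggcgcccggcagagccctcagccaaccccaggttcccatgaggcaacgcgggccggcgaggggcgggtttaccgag

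The mitochondrial ribosomal protein genes hardly differed between the libraries labelled KO and WT. All single values lay between 0.766 and 1.25, and the ratio of the group means ran from 0.841 to 1.28, with 59 of the 73 genes within 1.1-fold either way. The median log2 change was -0.0094, against -0.0043 over all genes tested. Of the 73 genes, 33 had a positive and 40 a negative log2 change. In limma, fitted over all genes, 0 of the 73 passed the adjusted threshold, the smallest adjusted p being 0.303. At an unadjusted p under 0.05, 1 gene was higher and 0 lower, where 6.5% and 5.53% of all genes were. The groups did not overlap for 8 genes, with KO the higher group for 3 and the lower for 5, where 8.86% and 10.1% of all genes were so placed. The 95% interval of the change was taken on log2(value + 0.1) and not adjusted for the number of genes. On that scale it lay inside 1.5-fold in both directions for all 73, against 63.5% of all genes. The outermost bounds were 0.685- and 1.48-fold. Without the added 0.1 the log2 change was 0.36 in place of 0.32 for *Mrpl1* and -0.22 in place of -0.20 for *Mrps9*. Intervals without it were not set against 1.5-fold.

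**Figure D1:**
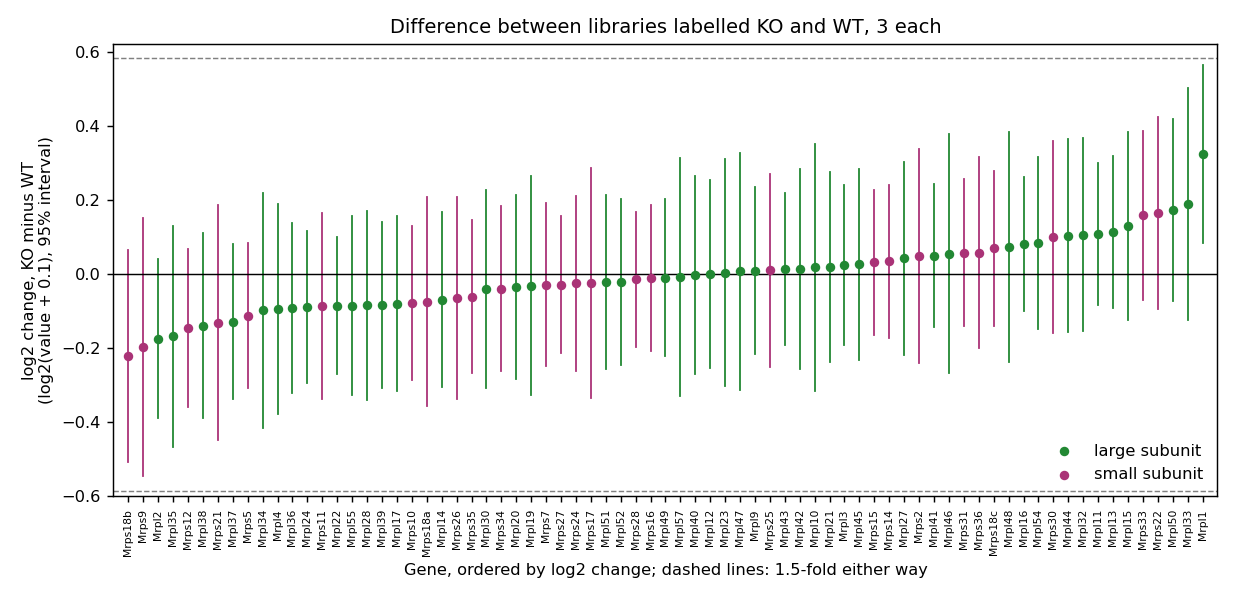
Log2 change between the libraries labelled KO and WT (3 each) for the 73 mitochondrial ribosomal protein genes, ordered by size, with 95% intervals from limma. The points run from -0.22 (*Mrps18b*) to 0.32 (*Mrpl1*), and every interval lies between the dashed lines at 1.5-fold.

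In the large subunit, *Mrpl1* had the highest change. It encodes the counterpart of bacterial L1, the protein of the mobile stalk beside the exit site for transfer RNA. Its values were 0.845, 0.803 and 0.980 in WT replicates 1 to 3 and 1.16, 1.05 and 1.14 in KO replicates 1 to 3, so the groups did not overlap. WT averaged 0.876 ± 0.0924 and KO 1.12 ± 0.0567 (SD, n = 3 each), a ratio of 1.28. The log2 change was 0.32 (SE 0.10), with an unadjusted p of 0.0168 and an adjusted p of 0.303 in limma, so it did not pass. It is also the gene whose values spread most within the large subunit. Its transcripts are GC-poor, at 41.1% against a median of 49.9% over the 73 genes. *Mrpl1* spans chromosome 5, 96209493 to 96266727, plus strand (mm10), in GENCODE M21. That start lies upstream of the RefSeq start, so the bases printed above for *Mrpl1* fall inside the GENCODE span.

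*Mrpl2*, whose bacterial counterpart lies in the core near the peptidyl transferase centre, had the lowest change of the large subunit. It stood at 1.04, 1.15 and 1.03 in WT and at 1.01, 0.896 and 0.910 in KO, again without overlap (0.875-fold, log2 change -0.17, SE 0.09, limma adjusted p = 0.495). The other large-subunit genes with the smallest p overlapped between the groups. *Mrpl50*, a protein added in mitochondria, had means of 0.909 ± 0.0412 in WT and 1.04 ± 0.116 in KO (SD, n = 3 each), and its highest value, 1.17, was in KO replicate 2. Its log2 change of 0.17 was 0.09 without that library. *Mrpl33*, a small conserved protein, stood at 0.886, 1.12 and 0.800 in WT, on both sides of the KO values of 1.09, 1.09 and 1.03. Its log2 change of 0.19 was 0.31 without WT replicate 2 and 0.10 without WT replicate 3. *Mrpl37*, another mitochondrial addition, had a ratio of means of 0.907. *Mrpl11*, of the stalk base where translation factors bind, had a ratio of 1.09. *Mrpl47*, which lies by the exit of the nascent chain, had the widest spread after *Mrpl1* in the large subunit. It was lowest in KO replicate 3 (0.808) and highest in KO replicate 1 (1.13), so its libraries labelled KO held both ends of the range. Their adjusted p values in limma lay between 0.551 and 0.990. *Mrpl13*, *Mrpl16* and *Mrpl22*, named after their values were seen, make up with *Mrpl1* and *Mrpl2* the large-subunit genes without overlap. Their ratios of means were 1.09, 1.06 and 0.936.

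In the small subunit, the lowest change was that of *Mrps18b*, at 1.03, 1.25 and 0.966 in WT and 0.959, 0.930 and 0.836 in KO. WT replicate 2 was the highest and the groups did not overlap. WT averaged 1.08 ± 0.149 and KO 0.908 ± 0.0640 (SD, n = 3 each), a ratio of 0.841, with a log2 change of -0.22 (SE 0.12, limma adjusted p = 0.52). Without WT replicate 2 its log2 change was -0.12. *Mrps12*, the counterpart of bacterial S12 at the decoding centre, stood at 1.00, 1.16 and 1.02 in WT and 0.950, 0.917 and 0.982 in KO (log2 change -0.15, limma adjusted p = 0.564, and -0.08 without WT replicate 2). *Mrps5*, a conserved protein near the path of the messenger RNA, also lay lower in every KO library, with a ratio of means of 0.917. Its log2 change of -0.11 was -0.06 without WT replicate 1. *Mrps9*, whose bacterial counterpart reaches towards the transfer RNA, had the widest spread of all 73 genes. It ran from 0.766 in KO replicate 3 to 1.15 in WT replicate 3, with KO replicate 1 at 1.03, above WT replicate 1 at 0.915. Its log2 change was -0.20, and -0.08 without KO replicate 3. It lay below *Mrps18b* without WT replicate 1 (-0.29 against -0.25), WT replicate 2 (-0.16 against -0.12) or KO replicate 1 (-0.28 against -0.26), so which gene is lowest depends on single libraries.

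The highest change in the small subunit was that of *Mrps22*, a mitochondrial addition in which human mutations cause respiratory chain deficiency. It stood at 0.863, 0.921 and 1.03 in WT and at 1.00, 1.01 and 1.18 in KO, a ratio of means of 1.13 with overlap (log2 change 0.16, limma adjusted p = 0.593). *Mrps33*, also added in mitochondria, had a ratio of means of 1.13 and a log2 change of 0.16. Its values of 0.875 and 0.884 in WT replicates 1 and 3 lay below all 3 KO values, while WT replicate 2 at 1.05 lay among them. The log2 change of *Mrps22* was 0.09 without KO replicate 3 and 0.11 without WT replicate 1, where that of *Mrps33* was 0.15 and 0.12. Without WT replicate 2, too, *Mrps33* was the higher of the pair (0.24 against 0.15).

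*Mrps18a*, *Mrps18b* and *Mrps18c* are paralogs related to 1 bacterial protein, S18, and only *Mrps18c* is counted here as conserved. In the structure of the mammalian ribosome *Mrps18a* sits in the large subunit despite its symbol, and the other two in the small one. The log2 change was -0.07 for *Mrps18a*, -0.22 for *Mrps18b* and 0.07 for *Mrps18c*, none past the threshold (smallest limma adjusted p = 0.52). *Mrps18a* was highest in WT replicate 2 (1.18) and lowest in WT replicate 1 (0.905), so WT held its whole range. *Mrps18c* was highest in KO replicate 1 (1.09) and lowest in WT replicate 3 (0.917). *Mrps30*, also placed in the large subunit by structure, had a ratio of means of 1.08. *Mrps36*, since assigned to the oxoglutarate dehydrogenase complex rather than the ribosome, had 1.05.

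What the genes had in common lay between libraries and not between the groups. WT replicate 2 held the highest value of the 6 libraries for 42 of the 73 genes (57.5%), against 22.3% of all genes tested. It was the lowest for 3. WT replicate 3 was the lowest for 27 genes (37.0%, against 16.3% of all genes) and the highest for 1. The median ratio in WT was 0.994, 1.09 and 0.958 in replicates 1 to 3, and in KO 1.03, 0.993 and 0.979. The highest and the lowest of these medians thus both belong to WT, and the KO medians lie between them. Both subunits had this profile, with WT replicate 2 highest for 27 of 46 large-subunit and 15 of 27 small-subunit genes. *Mrps21*, whose upstream sequence is shown above, stood at 1.25 in WT replicate 2 against 0.892 to 1.02 elsewhere.

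**Figure D2:**
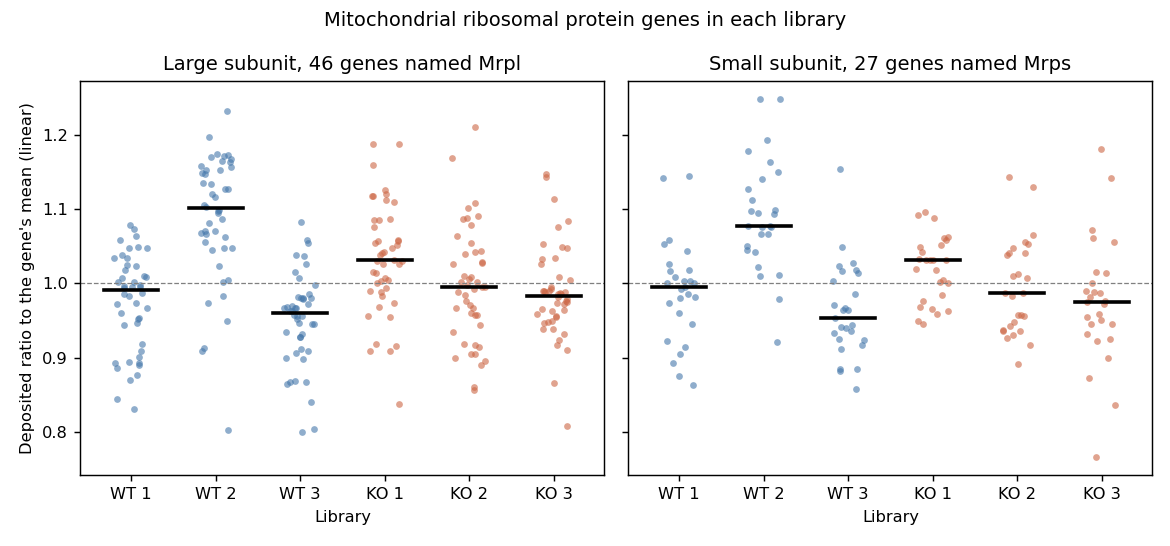
Deposited ratio of each mitochondrial ribosomal protein gene in each library (1 point a gene, bar: median), for 46 large-subunit and 27 small-subunit genes. The point clouds of both subunits are highest in WT replicate 2 and lowest in WT replicate 3, with the 3 libraries labelled KO between them.

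Genes of related machinery had the same library at the top. The mean centred log2 value in WT replicate 2, which is the log2 value less the gene's mean over the 6 libraries, was 0.11 for the mitochondrial ribosomal protein genes. It was 0.12 for 81 cytosolic ribosomal protein genes and 0.15 for 80 genes of the respiratory chain and ATP synthase. Over all genes the mean was -0.03. The median there was 0.12 in each of these lists and 0.015 over all genes. WT replicate 2 was the highest library for 75.3% of the cytosolic ribosomal and 78.8% of the respiratory chain genes. In WT replicate 3 the means were -0.06 for the mitochondrial ribosome, -0.03 for the cytosolic one and -0.09 for the respiratory chain. Whether these lists differ was not tested. For the 73 genes the group means of this score were 0.0032 ± 0.0909 in WT and -0.0032 ± 0.0307 in KO (SD, n = 3 each), so the groups differed by less than the spread among the WT libraries.

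**Figure D3:**
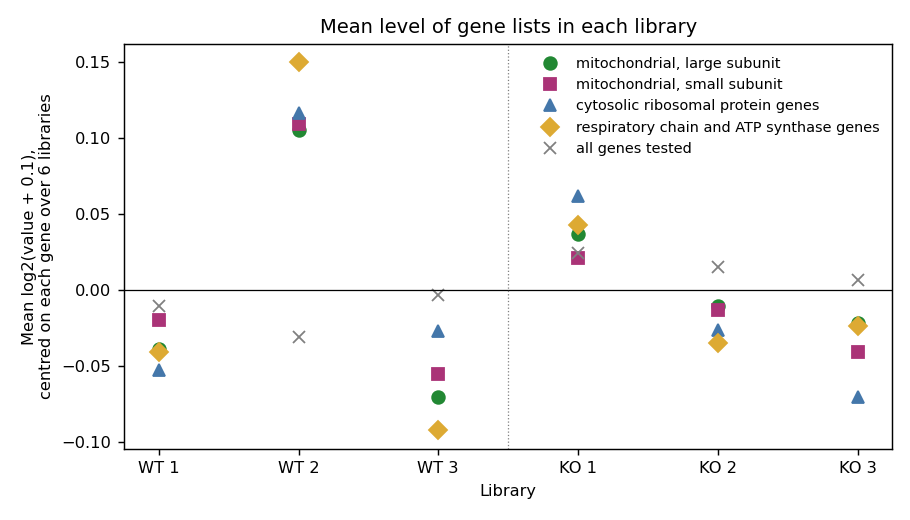
Mean log2(value + 0.1) of 5 gene lists in each library, with each gene centred on its mean over the 6 libraries. Both subunits of the mitochondrial ribosome follow the cytosolic ribosomal protein genes and the respiratory chain genes up to between 0.10 and 0.15 in WT replicate 2. The mean of all genes in that library is -0.03 and their median, not drawn, 0.015.

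Transcript length, GC content and some lists of markers of other cells moved with WT replicate 2. Over all genes, the median centred log2 value in that library went from 0.09 in the bin with the shortest exons to -0.07 in the bin with the longest, with the genes in 5 bins of near equal size. It went from -0.11 in the bin with the lowest GC content to 0.09 in the bin with the highest. Other libraries had such gradients too. By GC content, KO replicate 3 went from 0.10 to -0.07 and WT replicate 1 from -0.08 to 0.06. By exon length, WT replicate 3 went from -0.04 to 0.06 and KO replicate 1 from 0.05 to -0.03. The mitochondrial ribosomal protein genes are short, with a median of 1398 bases of exon against 3174 over all genes, and 46 of the 73 fall in the shortest bin. There their median in WT replicate 2 was 0.13. After each library was fitted on GC content and length, an alternative added after the data were seen, their mean in WT replicate 2 was 0.07 in place of 0.11. The count of genes highest there was 27 in place of 42, against 2450 of 12116 genes with a length. The same library had the lowest mean centred log2 value for macrophage markers (-0.30, against -0.12 to 0.27 in the others), cholangiocyte markers (-0.54, against -0.23 to 0.60), T and NK cell markers (-0.30, against -0.28 to 0.87) and stellate cell markers (-0.21, against -0.07 to 0.18). Of these lists 6 of 6, 5 of 5, 4 of 5 and 4 of 4 markers had values, all above 0 in every library. Gene by gene, WT replicate 2 was the lowest library for 5 of 6, 3 of 5, 2 of 4 and 1 of 4 of them. Other lists were not lowest there. Endothelial markers stood at -0.09 in WT replicate 2 and lowest in KO replicate 1 (-0.14), B and plasma cell markers at -0.38 and lowest in WT replicate 1 (-1.23). The adipocyte marker *Cfd* stood at -0.08 and lowest in WT replicate 3 (-1.54), and hepatoma and fetal liver markers at 0.05 and lowest in WT replicate 1 (-0.64). Between the groups, the log2 change was positive for 6 of 6 macrophage, 5 of 5 cholangiocyte, 2 of 2 B and plasma cell, 2 of 2 hepatoma and fetal liver, 3 of 4 stellate, 2 of 4 T and NK cell, 1 of 4 endothelial and 2 of 7 hepatocyte markers. It was positive for *Cfd* too, and 0 of all these markers passed the threshold. Only 2 of the 6 markers listed for hepatoma and fetal liver were scored. For B and plasma cells it was 2 of 3, and for adipocytes 1 of 3. In the hepatoma and fetal liver list 4 rows had values, all above 0 in every library. Rows sharing a symbol were left out of the scores. The smallest limma adjusted p among these markers, 0.0842, was that of stellate *Col1a1* (ratio of means 1.75, without overlap). *Reln* of that list had a ratio of 0.887, with overlap. *Jchain*, of plasma cells, had a ratio of 7.32 (limma adjusted p = 0.143), and *Cd79a* of that list 1.12, with overlap. *Top2a*, of dividing cells and in the hepatoma list, had 2.07 (limma adjusted p = 0.428) and *Gpc3* of that list 1.14, both with overlap. The mean over the hepatocyte markers ran from -0.02 to 0.02 in WT and from -0.06 to 0.06 in KO. Single ones varied more. *Ttr* had a ratio of 0.82 without overlap (limma adjusted p = 0.309), and *Apob* 1.26 with overlap. The part of all these markers in the high values of WT replicate 2 was not tested. In bulk tissue, fewer cells of a type and less RNA per cell cannot be told apart.

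**Figure D4:**
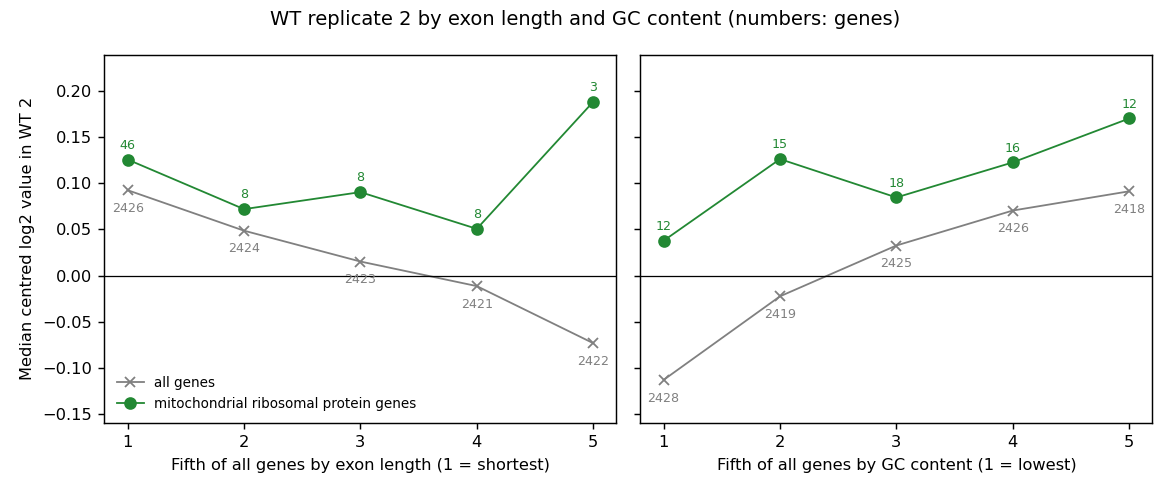
Median centred log2 value in WT replicate 2 for all genes and for the mitochondrial ribosomal protein genes, by 5 bins of exon length and of GC content (numbers: genes in each point). All genes fall from 0.09 to -0.07 with length and rise from -0.11 to 0.09 with GC content, and the mitochondrial ribosomal protein genes lie above them in every bin, of which the one with the longest exons holds only 3.

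GC content also ran with the difference between the groups. Across the 73 genes, the log2 change had a Pearson r of -0.452 and a Spearman rho of -0.454 with the GC content of the transcripts, and across 12116 genes -0.177 and -0.265. Genes are not independent replicates and share the libraries, so no p is given. The median log2 change was 0.09 for the 12 genes in the lowest bin of GC content and -0.08 for the 12 in the highest, as over all genes (0.09 and -0.08). *Mrpl1* and *Mrpl50* (42.3%), with positive changes, are GC-poor, and *Mrpl2* (57.3%) and *Mrps12* (56.9%), with negative ones, are GC-rich. Other genes did not follow this order: *Mrps9* (45.1%) and *Mrpl35* (44.6%, log2 change -0.17) are GC-poor with negative changes, and *Mrps18b*, the lowest, is at 51.9%. With the GC content and length correction the log2 change was 0.20 in place of 0.32 for *Mrpl1*, 0.07 in place of 0.17 for *Mrpl50* and 0.12 in place of 0.19 for *Mrpl33*. It was 0.10 in place of 0.16 for *Mrps33*, -0.09 in place of -0.15 for *Mrps12*, and -0.26 for *Mrps9*, below -0.20 for *Mrps18b*.

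The large and the small subunit differed from each other by very little. The median log2 change was 0.0017 for the 46 genes named Mrpl, with 23 positive and 23 negative. It was -0.025 for the 27 named Mrps, with 10 positive and 17 negative, a difference of 0.027. Within each library, the mean centred log2 value of the large subunit less that of the small one was -0.019, -0.0043 and -0.015 in WT and 0.016, 0.0028 and 0.019 in KO. The groups did not overlap in this measure, and the difference of their means was 0.025. No test was run, since the genes were chosen with results of these data known. With *Mrps18a* and *Mrps30* moved to the large subunit and *Mrps36* left out, after the structure, the difference was 0.032, also without overlap. Without *Mrpl1* and *Mrps18b* it was 0.011 and the groups overlapped, and with medians over the genes in place of means it was 0.0034 with overlap. The difference of the median log2 changes was -0.014 without WT replicate 1.

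**Figure D5:**
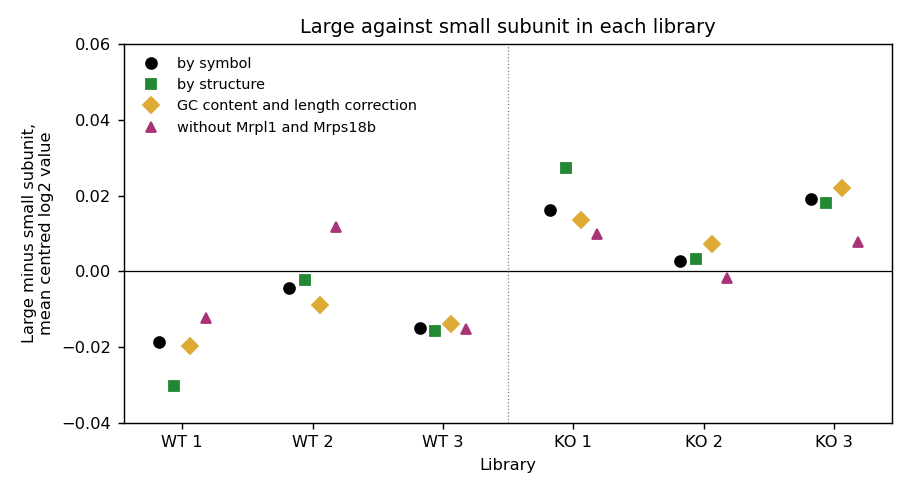
Mean centred log2 value of the large-subunit genes less that of the small-subunit genes in each library, under 4 settings. By symbol the libraries labelled WT lie between -0.019 and -0.0043 and those labelled KO between 0.0028 and 0.019, while without *Mrpl1* and *Mrps18b* WT replicate 2 (0.012) lies above KO replicate 1 (0.0099).

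The genes were also split into those for proteins shared with bacteria and those for proteins added in mitochondria. The median log2 change was -0.025 for the 43 conserved genes and -0.0016 for the 29 mitochondria-specific ones. In the large subunit, WT replicate 2 was the highest library for 20 of 29 conserved genes and for 7 of 17 mitochondria-specific ones, and in the small subunit for 9 of 14 and 6 of 12. Over both subunits the shares were 67.4% and 44.8%. Among genes with at least 1 of the promoter motifs, WT replicate 2 was highest for 23 of 34 (67.6%), and among those with none for 14 of 30 (46.7%). Over all genes with a promoter the shares were 28.7% and 20.4%. The differences between these shares, of origin or of motif, were not tested.

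Several of the genes share their start region or part of their span with a neighbour. In GENCODE M21, 18 of the 73 (24.7%) have the start of a coding gene that runs the other way within 1000 bases upstream. Of 11614 coding genes tested, 10.1% do. Pairs whose starts lie inside each other's span are not counted. *Mrps11* and *Mrpl46* are such a pair, with log2 changes of -0.09 and 0.06. Of the 16 such neighbours with values, 7 were highest in WT replicate 2, and 0 passed the threshold. *Mrps12* starts 172 bases from *Sars2*, the mitochondrial seryl-tRNA synthetase, and both were highest in WT replicate 2, with log2 changes of -0.15 and -0.04. *Mrpl49* starts 59 bases from *Fau*, which encodes a cytosolic ribosomal protein fused to a ubiquitin-like one (-0.0094 and -0.0059). *Mrps18b* starts 45 bases from *Ppp1r10*, a regulator of protein phosphatase (-0.22 and -0.44, limma adjusted p = 0.217 for *Ppp1r10*). Of the 16 pairs, 12 had log2 changes of the same sign, some of them near 0. The share among other pairs of genes was not taken, so this count cannot be judged. Pairs of opposite sign included *Mrpl51* with the condensin subunit *Ncapd2* (-0.02 and 0.43) and *Mrpl32* with the proteasome subunit *Psma2* (0.11 and -0.06). These pairs were named after their values were seen. The spans of 23 of the 73 overlap another coding gene, in 22 cases on the opposite strand, *Mrpl33*, *Mrpl47*, *Mrps11* and *Mrps18a* among them. The sources used here do not say whether counting used strand, so reads of such pairs may not be separable.

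Other genes of mitochondrial translation gave 0 passing genes as well. The mitoribosomal proteins under other symbols, *Dap3*, *Ptcd3*, *Chchd1*, *Aurkaip1* and *Gadd45gip1*, had a median log2 change of 0.03, with 3 of 5 positive. *Gadd45gip1* and *Aurkaip1* were highest in WT replicate 2, at 1.22 and 1.19. Of 24 assembly and ribosomal RNA modification factors, 11 were positive (median -0.027). At an unadjusted p under 0.05, 0 were higher and 2 lower, against 6.5% and 5.53% of all genes. These were *Mrm1*, a methyltransferase of mitochondrial ribosomal RNA, at a ratio of means of 0.712 (limma adjusted p = 0.348), and *Eral1*, a chaperone of the small subunit's RNA, at 0.835 (adjusted p = 0.369). *Mettl15*, a methyltransferase of that RNA, had a ratio of 1.43 (adjusted p = 0.417). Of 17 translation factors, 11 were positive (median 0.02) and 0 reached an unadjusted p under 0.05. The smallest p values there belonged to the membrane insertase *Oxa1l* (0.901-fold), the elongation factor *Guf1* (1.20-fold) and the release factor *Mtrf1l* (0.741-fold).

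Genes that transcribe and maintain mitochondrial DNA, where the ribosomal RNA is encoded, had a median log2 change of 0.10, with 13 of 17 positive. At an unadjusted p under 0.05, 3 were higher and 1 lower, against 6.5% and 5.53% of all genes. *Mterf2*, a DNA-binding factor of the mitochondrial termination factor family, stood at 0.386, 0.813 and 0.595 in WT and 1.84, 1.28 and 1.32 in KO, without overlap (2.47-fold, log2 change 1.21, SE 0.26, limma adjusted p = 0.211). The elongation factor *Tefm* had a ratio of 1.33 and *Tfam*, which packages mitochondrial DNA and starts its transcription, 1.22, both without overlap (adjusted p = 0.323 and 0.367). Of 11 factors that drive nuclear genes of mitochondrial proteins, 3 were positive (median -0.14). The coactivators *Pprc1* and *Ppargc1b* had ratios of 0.706 and 0.776 without overlap, and *Hcfc1* 0.883 (adjusted p = 0.359, 0.462 and 0.546). Of these, 0 were higher and 1 lower at an unadjusted p under 0.05, against the same 6.5% and 5.53%. Of 25 import and chaperone genes, 10 were positive (median -0.02), and 2 were higher and 1 lower at that level, near the 6.5% and 5.53% of all genes. The smallest p values there belonged to the chaperonin *Hspd1* (ratio 1.16), citrate synthase *Cs* (1.18) and the import chaperone *Timm9* (0.830) (limma adjusted p = 0.393, 0.403 and 0.403). *Cs* is in this list although it encodes neither an import factor nor a chaperone, and it is 1 of the 2 counted as higher.

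Single libraries set the sign of the median over the 73 genes. Without WT replicate 2 the median log2 change was 0.05, with 47 of 73 genes positive, and *Mrpl1*, *Mrpl33* and *Mrps33* had an unadjusted p under 0.05. At that level 3 of the 73 were thus higher and 0 lower, where 713 and 532 of all 12566 genes were. Without WT replicate 3 the median was -0.05, with 25 positive. Without KO replicate 3 it was 0.0091, with 40 positive. Without WT replicate 1 or KO replicate 1 it was -0.03, with 26 positive in each case, and *Mrpl1* no longer had an unadjusted p under 0.05. In none of these fits did any of the 73 genes pass the adjusted threshold, the smallest limma adjusted p being 0.25 without WT replicate 3.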

How the data were processed

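Polyadenylated RNA of 6 liver samples was sequenced, 3 per group. The deposited values are a linear ratio of a gene's expression to its own mean over 7 libraries. This was read from the values, as none exceeds 7 and 99 rows sum to 7 within 1e-09. STAR 2.10, R 4.0.5 and mm10 appear in the submitters' processing notes, with no role stated. No source used here gives the counter, the annotation, the library scaling or the depth. The ratio removes abundance, so levels of different genes and low read support cannot be judged.

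Of 12792 rows, 189 had no values. The 12578 rows above 0 in at least 3 libraries were taken to log2(value + 0.1) and tested with limma 3.58.1 in R 4.3.3, with no mean trend. The added 0.1 understates changes in general, and those of low values most. P-values were adjusted by Benjamini-Hochberg over all these rows. The fit was tested on simulated data. Folds are ratios of group means, except the bounds of intervals, which come from the log2 changes. Positions, exon length and GC content came from GENCODE M21, matched by symbol. The members, lists and tests were chosen with earlier results of these data known. Named were *Akr1d1*, the 6 members per subunit with the smallest p, the highest, lowest and 2 most spread per subunit, the *Mrps18* paralogs, and 3 genes per other list by p. Same-numbered libraries of the groups did not deviate together (correlations -0.021, -0.002 and 0.089). Alternatives changed the pseudocount, filter, scaling, trend, library weights, replicate block, and single libraries.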

Additional observations from a re-analysis of the deposited data

How the results depend on the processing

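Of the 73 mitochondrial ribosomal protein genes, 0 passed the adjusted threshold in the main analysis or in any alternative fit. Their median log2 change, -0.0094, ran from -0.048 to 0.05 when 1 library was left out, so its sign was not stable. In every alternative it moved by less than 0.068, the SD between replicates of the genes' score per library. That SD takes in WT replicate 2, whose removal moved the median most, and is not an error of the median. The count of all genes past the threshold, 2, was 0 with only rows above 0 in all 6 libraries, whether or not the pseudocount was also dropped, and 0 with a mean trend in limma. It was 1 with a pseudocount of 1, with the replicate block, and with the GC content and length correction with or without that block, and 0 to 4 with 1 library left out. The count of members at an unadjusted p under 0.05, 1, was 2 with the GC content and length correction, 0 with that correction and the replicate block, and 0 to 3 with 1 library left out. Over all 12116 genes of the corrected fits, 800 were higher and 683 lower at that level, and 772 and 558 with the block. With 1 library left out, 628 to 955 of all genes were higher and 497 to 647 lower, of 12564 to 12568 tested. The large-minus-small difference of median log2 changes, 0.027, was 0.017 with a pseudocount of 1, 0.043 with library weights and 0.036 with the GC content and length correction, with or without the replicate block. It ran from -0.014 to 0.038 with 1 library left out. Of the values for named members under the alternatives, 235 kept their direction and side of the threshold and 5 changed sign: *Mrps18c* with the GC content and length correction with or without the replicate block (-0.0094 each), *Mrpl47* when replicate 1 of WT or of KO was left out (-0.042 and -0.10; its highest such value was 0.11), and *Mrps18a* without WT replicate 2 (0.009; its lowest such value was -0.16). The cause was not tested. The labels do not say whether the replicate numbers pair the samples, and the block changed no other call among the members. The GC content and length correction and the setting without *Mrpl1* and *Mrps18b* were chosen after seeing the data. Depth is unknown, and 3 libraries per group limit the precision: the SE of a member's log2 change was 0.073 to 0.14.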
